A study of Mus musculus with 21 samples.

Results

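Committed myoblasts are the muscle progenitors that have left the stem cell pool and are on their way to fusion. Here they are the cells to which the authors gave that state from a binned position on a trajectory of myogenic differentiation. The 21 per-cell tables held 185 such cells among 87822 cells. Every cell with the label was kept, and the mouse was the unit of comparison. The samples were single-cell RNA sequencing (scRNAseq) libraries of tibialis anterior muscle, with 1 library per mouse. All mice were 20-month-old female C57BL/6J mice. Notexin, a snake venom phospholipase that lyses myofibers, was injected into the muscle, and mice were taken at 1 (4 mice), 2 (3 mice), 3.5 (4 mice), 5 (3 mice) or 7 (3 mice) days post-injury (dpi). The uninjured group held 4 mice of the same age and strain.

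In resting muscle, satellite cells (muscle stem cells, MuSCs) sit quiescent beside the myofiber and express Pax7. After injury they activate, divide as myoblasts that express Myod1, commit to differentiation with the onset of Myog and then fuse into new myofibers. Cdk1 drives entry into mitosis and marks progenitors that are still cycling. The tables held no values of single genes, so Myod1, Myog and Cdk1 were not analysed here and the label could not be checked against them. What the tables gave for each cell was its unique molecular identifiers (UMIs, 1 per captured transcript), the genes detected, the percent of UMIs from classes of genes, a doublet score and its labels.

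The libraries held between 974 and 10556 cells and between 5602464 and 70730171 UMIs. Where an interval is given for a share of cells it is an exact Clopper-Pearson 95% interval, and where no cell was found the limit is that of 3 cells, both covering counting error only. Of the 185 committed myoblasts, 2 shared a cell barcode with a committed myoblast of another library, and 5 shared one with any cell of another library.

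Committed myoblasts were nearly absent from uninjured and early injured muscle and were present in every mouse from 3.5 dpi on. They numbered 60 at 3.5 dpi, 60 at 5 dpi and 60 at 7 dpi, which together was 97.3% of the 185 cells. The other 5 were 3 cells in uninjured and 2 cells in 2 dpi samples. By mouse, the counts were 8, 17, 17 and 18 at 3.5 dpi. They were 21, 22 and 17 at 5 dpi, and 24, 30 and 6 at 7 dpi. The 7 dpi group therefore held both the largest and the smallest count of the 10 later mice.

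As a share of all cells of a mouse, committed myoblasts made up 0.256%, 0.646%, 0.252% and 0.462% at 3.5 dpi. At 5 dpi they made up 0.395%, 0.260% and 0.640%, and at 7 dpi 0.402%, 0.707% and 0.265%. Uninjured mice had 0.0882%, 0%, 0.0199% and 0%. The 2 dpi mice had 0.00947%, 0.0217% and 0%. None of the 10 later mice overlapped the 11 uninjured, 1 dpi and 2 dpi mice. At 1 dpi, 0 of 12477 cells over 4 mice were committed, which allows a share of up to 0.0240%.

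**Figure D1:**
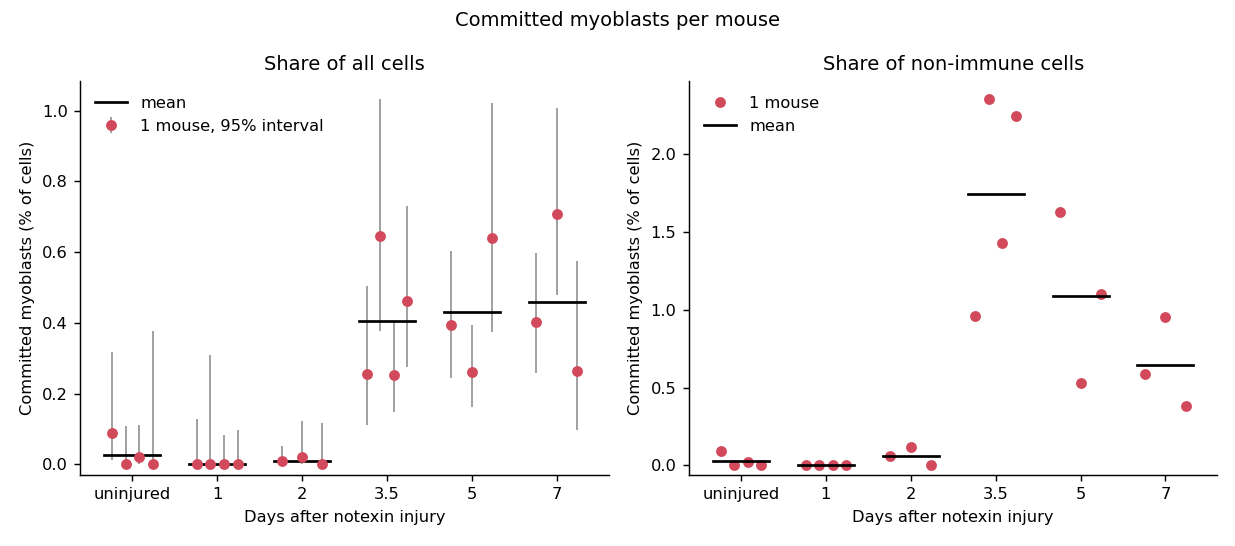
Committed myoblasts as a percent of all cells (left, with exact 95% intervals) and of non-immune cells (right), for each mouse by days after notexin, with the group mean as a black line. The 10 mice at 3.5, 5 and 7 dpi lie between 0.252% and 0.707% of all cells, while the means of the right panel fall from 1.75% at 3.5 dpi to 0.643% at 7 dpi.

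The mean share in uninjured muscle was 0.0270% ± 0.0419 (SD, n = 4) and that of 2 dpi mice was 0.0104% ± 0.0109 (n = 3). It reached 0.404% ± 0.189 (n = 4) by 3.5 dpi, 0.432% ± 0.193 (n = 3) by 5 dpi and 0.458% ± 0.226 (n = 3) by 7 dpi. Over the 6 time points the share differed between groups (permutation test of the F statistic on arcsine square root shares, adjusted p = 9.37e-05). Most labels did the same, since 20 of the 25 labels (80%) passed this test, so the call is not particular to committed myoblasts. Pooled over mice, the share at 3.5 dpi was 14.2 times that of uninjured muscle, with a counting interval of 4.65 to 71.0 that is wide because 3 uninjured cells carry it. The corresponding ratios were 14.2 (4.63 to 70.8) at 5 dpi and 18.7 (6.11 to 93.4) at 7 dpi. Replicate A held 2 of the 3 uninjured cells, and without it, a choice made after the data had been seen, the ratios were 34.4 (5.95 to 1383), 34.3 (5.93 to 1379) and 45.3 (7.82 to 1818).

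Against uninjured muscle, the share was higher at 3.5 dpi (limma on arcsine square root shares, adjusted p = 0.000894), 5 dpi (adjusted p = 0.00112) and 7 dpi (adjusted p = 0.00135). In these contrasts 44%, 44% and 40% of the 25 labels were called higher. The exact permutation test gave p = 0.0286 for each of the 3, the smallest value that 4 against 4 or 4 against 3 mice allow, and 0.0762 after adjustment over 8 contrasts. On the untransformed share the limma calls were lost, with adjusted p = 0.0535, 0.0657 and 0.0674. Neither 1 dpi (adjusted p = 0.403) nor 2 dpi (adjusted p = 0.866) passed, where 48% and 80% of labels were called in either direction.

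From 3.5 to 7 dpi the share of all cells did not pass a test in any direction. The difference was 0.0276 percentage points for 5 dpi minus 3.5 dpi (limma adjusted p = 0.859), 0.0542 for 7 dpi minus 3.5 dpi (adjusted p = 0.781) and 0.0266 for 7 dpi minus 5 dpi (adjusted p = 0.901). Over the same intervals 20%, 76% and 16% of the 25 labels were called. The 3 group means, from 0.404% to 0.458%, lay closer together than the mice within a group, which at 3.5 dpi spanned 0.252% to 0.646%.

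A share of all cells also moves with the other cells in the library. Cells with a non-immune Harmony class made up 97.2% ± 0.721 (SD, n = 4) of uninjured libraries and between 22.3% and 59.3% of those at 1 dpi and 15.7% and 36.7% of those at 2 dpi. They were 23.1% ± 4.74 (n = 4), 43.7% ± 17.5 (n = 3) and 70.4% ± 3.09 (n = 3) of those of 3.5, 5 and 7 dpi. Among non-immune cells alone, committed myoblasts made up 0.960%, 2.35%, 1.43% and 2.25% at 3.5 dpi. They made up 1.63%, 0.532% and 1.10% at 5 dpi, and 0.588%, 0.956% and 0.385% at 7 dpi. All 4 mice at 3.5 dpi lay above all 3 at 7 dpi, although the lowest of the former (0.960%) and the highest of the latter (0.956%) nearly touched.

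On this denominator the mean share was 1.75% ± 0.668 (SD, n = 4), 1.09% ± 0.548 (n = 3) and 0.643% ± 0.290 (n = 3) on the 3 successive days. The step from 3.5 to 7 dpi passed narrowly in limma (adjusted p = 0.0494), where 20% of the 15 non-immune labels were called, and the exact permutation test gave p = 0.0571. The step from 3.5 to 5 dpi did not pass (adjusted p = 0.553). The order of 3.5, 5 and 7 dpi thus depended on the denominator. Fewer committed cells and more cells of the other types cannot be told apart in shares, since no absolute cell number was measured.

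Along the trajectory, committed myoblasts are preceded by quiescent and activated MuSCs and followed by fusing myocytes, the cells that merge into multinucleated fibers. At 3.5, 5 and 7 dpi the 10 mice each held 80 to 304 cells with 1 of these 4 states. Committed myoblasts were 10.0%, 19.1%, 5.59% and 10.3% of them at 3.5 dpi. They were 11.5%, 10.9% and 5.88% at 5 dpi, and 8.92%, 10.3% and 5.88% at 7 dpi. Replicate B at 3.5 dpi was the highest of the 10 mice, and the 3 time points overlapped.

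The mean committed share of state-labelled cells was 11.3% ± 5.66 (SD, n = 4), 9.46% ± 3.11 (n = 3) and 8.36% ± 2.25 (n = 3) on these days, and it did not differ beyond the spread between mice (exact permutation F test, p = 0.747, adjusted over 3 balances 0.799). Its balance with the preceding state was as flat. Committed cells were 29.4% ± 8.92, 33.9% ± 14.1 and 34.1% ± 7.37 of activated plus committed cells at 3.5, 5 and 7 dpi (exact permutation F test, p = 0.799, adjusted 0.799). This last balance was chosen after the data had been seen.

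**Figure D2:**
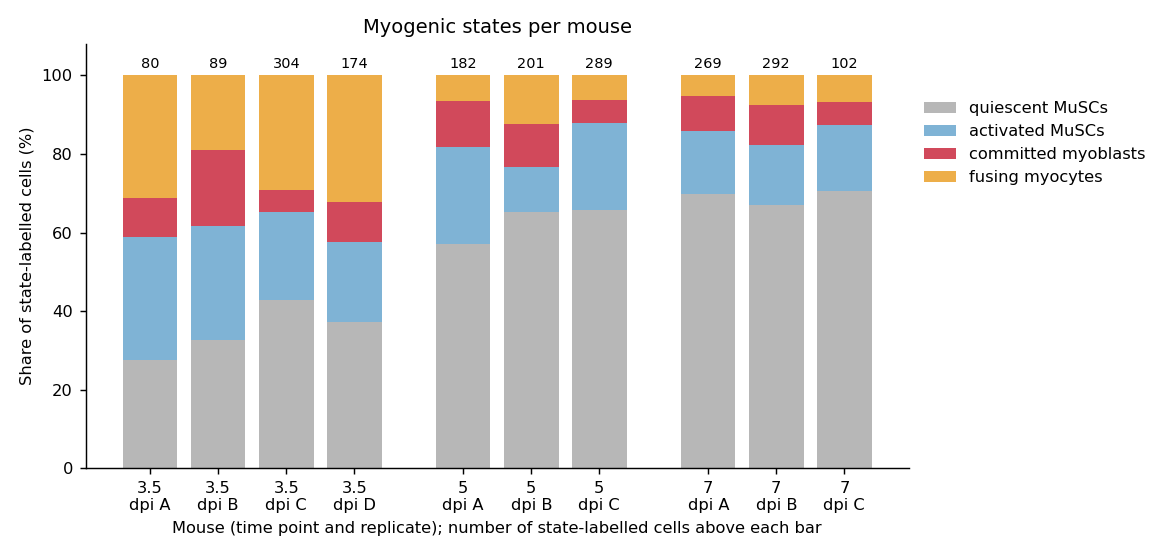
Share of quiescent MuSCs, activated MuSCs, committed myoblasts and fusing myocytes among the state-labelled cells of each mouse at 3.5, 5 and 7 dpi, with the number of such cells above each bar. The committed band stays between 5.59% and 19.1%, while the fusing band beyond it is wider at 3.5 dpi than later.

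The balance with the following state moved most. Fusing myocytes were 75.8%, 50.0%, 84.0% and 75.7% of committed plus fusing cells at 3.5 dpi. They were 36.4%, 53.2% and 51.4% at 5 dpi, and 36.8%, 42.3% and 53.8% at 7 dpi. All mice at 3.5 dpi other than replicate B (50.0%, with 17 committed and 17 fusing cells) lay above every later mouse. The means were 71.3% ± 14.8 (SD, n = 4), 47.0% ± 9.25 (n = 3) and 44.3% ± 8.68 (n = 3), with an exact permutation F test at p = 0.0386 that did not hold after adjustment over the 3 balances (adjusted p = 0.116). Between 3.5 and 7 dpi the exact permutation test gave p = 0.0857.

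As a share of all cells, fusing myocytes were lower at 7 dpi than at 3.5 dpi (limma adjusted p = 0.0236), and 76% of labels were called in that contrast. Activated MuSCs, like committed myoblasts, gave no call between these time points (adjusted p = 0.781). Whether the change of the fusing share differed from that of the committed share was not tested.

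Committed myoblasts at 3.5 dpi had far more UMIs per cell than those of later days. The median UMIs per committed myoblast were 49355, 38762, 34285 and 28526 in the 4 mice at 3.5 dpi. They were 13100, 12913 and 18599 at 5 dpi, and 10742, 15135 and 11497 at 7 dpi. The lowest mouse at 3.5 dpi exceeded the highest later mouse, and 8 of the 14 per-cell measures were set apart between these mice in 1 direction or the other. The medians at 3.5 dpi spread over 28526 to 49355. That spread was wider than the gap from 28526 down to the highest later mouse, at 18599.

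The geometric mean at 3.5 dpi was 2.52 times that at 5 dpi and 3.01 times that at 7 dpi, and the 5 dpi value was 1.19 times that at 7 dpi. On the log2 scale the medians averaged 15.17 ± 0.33 (SD, n = 4), 13.84 ± 0.30 (n = 3) and 13.59 ± 0.26 (n = 3), and the exact permutation F test gave p = 0.00238 (adjusted over 14 measures 0.0111). In pairs, 3.5 dpi against 5 dpi and against 7 dpi each gave the smallest p that 4 against 3 mice allow (exact permutation p = 0.0286), and 5 against 7 dpi gave 0.400. In all, 6 of the 14 per-cell measures (42.9%) passed, and leaving out any 1 of replicates A, B, C or D at 3.5 dpi left 2 of them, the transcription factor share and the doublet score.

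**Figure D3:**
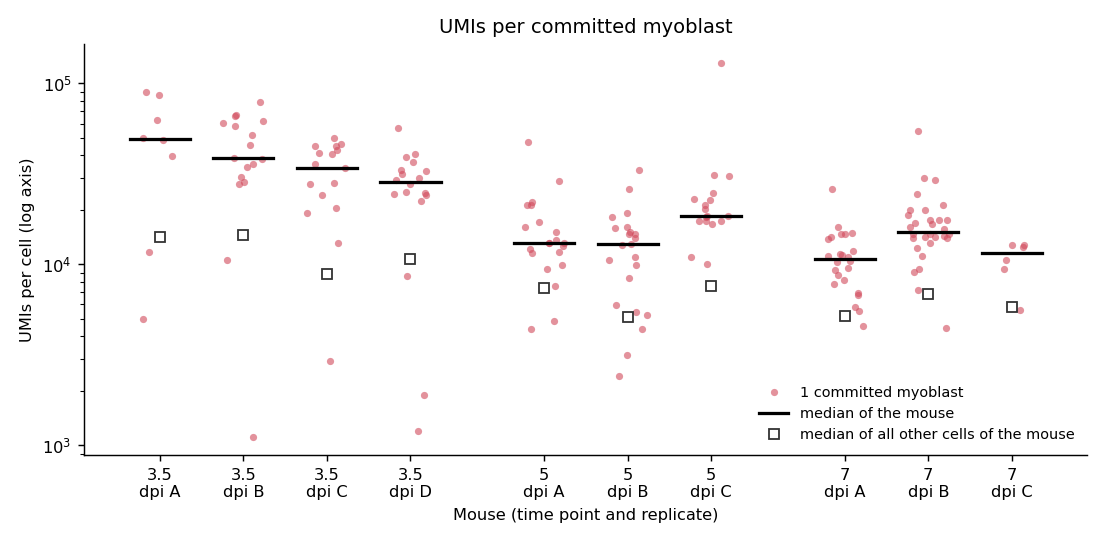
UMIs in each committed myoblast (red points, log axis) by mouse at 3.5, 5 and 7 dpi, with the median of the mouse as a black line and the median of all other cells of that mouse as an open square. The medians of committed myoblasts run from 28526 to 49355 at 3.5 dpi and from 10742 to 18599 later, and the other cells shift in the same direction.

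Other cells of the same libraries moved in the same direction. The median over all other cells was between 8867 and 14567 UMIs at 3.5 dpi, between 5098 and 7580 at 5 dpi and between 5211 and 6818 at 7 dpi, which put the geometric mean at 3.5 dpi at 1.79 and 2.00 times those of 5 and 7 dpi. Taken as a difference from the other cells of the mouse, the log2 UMIs of committed myoblasts were higher by 1.65 ± 0.27 (SD, n = 4), 1.15 ± 0.29 (n = 3) and 1.06 ± 0.09 (n = 3) on the 3 days (exact permutation F test, p = 0.0281, adjusted 0.0983). On these differences 0 of the 14 measures passed after adjustment and 4 had an unadjusted p under 0.05.

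Single cells varied widely as well, here over all mice of a time point. At 3.5 dpi single committed myoblasts held 1117 to 89447 UMIs, with quartiles of 24409 and 46054. At 5 dpi they held 2424 to 130216 UMIs with quartiles of 10854 and 19458, and at 7 dpi 4456 to 54724 with quartiles of 9496 and 16022. The quartiles were highest at 3.5 dpi, and of these 180 cells the 3 with fewer than 1000 genes were at 3.5 dpi too.

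Genes detected per committed myoblast followed the UMIs. The median was 6294, 5828, 5588 and 4899 genes in the mice at 3.5 dpi, against 3328, 3487 and 4448 at 5 dpi and 3250, 3764 and 3189 at 7 dpi. The geometric mean at 3.5 dpi was 1.51 times that at 5 dpi and 1.66 times that at 7 dpi (exact permutation F test on log2 genes, p = 0.00381, adjusted 0.0120). At a fixed number of UMIs, taken as the residual from a polynomial of degree 3 over all cells, no difference passed. The log2 residual was 0.03 ± 0.04 (SD, n = 4), 0.02 ± 0.01 (n = 3) and 0.02 ± 0.08 (n = 3), with adjusted p = 0.938 in the exact permutation F test. Divided by the sequencing saturation of the library instead, genes per cell differed by -1.20 on the log2 scale for 7 dpi minus 3.5 dpi (adjusted p = 0.00444 in the same exact test). Without the division this difference was -0.73. The divisor is part of the larger value, since saturation ran from 33.5% to 48% at 3.5 dpi and from 46.3% to 71.1% at 7 dpi.

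Within a mouse, committed myoblasts held more UMIs than quiescent MuSCs in 10 of 10 mice, by 0.71 ± 0.39 (SD, n = 10) on the log2 scale or 1.63-fold. They held more than activated MuSCs in 8 of 10 mice (0.44 ± 0.48, 1.36-fold). Against fusing myocytes the direction was split, with 5 of 10 mice higher in committed cells (0.39 ± 0.81). These differences are descriptions with no test, since the states were assigned from the same transcriptomes.

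**Figure D4:**
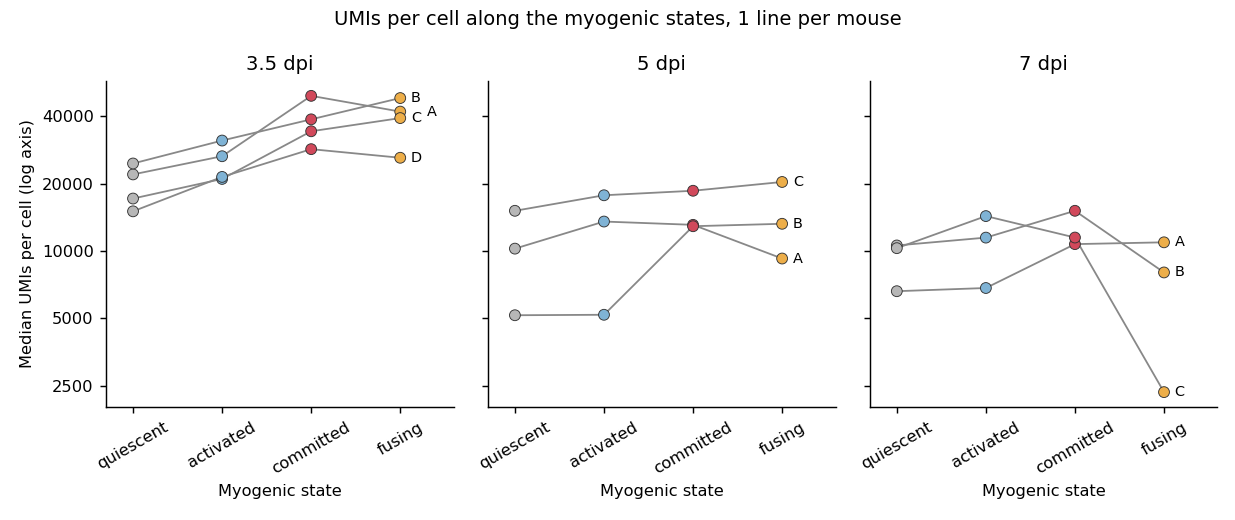
Median UMIs per cell (log axis) in each of the 4 myogenic states, with 1 line per mouse and 1 panel per time point, letters naming the replicates. At 3.5 dpi all 4 lines rise from quiescent to committed cells, and at 7 dpi replicate C drops to 2345 UMIs in its 7 fusing myocytes.

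From quiescent over activated to committed cells the medians rose in 4 of 4 mice at 3.5 dpi, in 2 of 3 at 5 dpi and in 2 of 3 at 7 dpi, and they rose further to fusing cells in 2, 2 and 1 of these mice. At 3.5 dpi the medians ran from 15053 to 24617 UMIs in quiescent MuSCs, from 21002 to 31167 in activated MuSCs, from 28526 to 49355 in committed myoblasts and from 26110 to 48249 in fusing myocytes. At 5 dpi the activated medians were 13551, 5195 and 17754, and at 7 dpi they were 6841, 11487 and 14332, all below the 3.5 dpi range. Quiescent medians ran from 5171 to 15134 at 5 dpi and from 6620 to 10596 at 7 dpi, and 5 dpi replicate C (15134) was just above the lowest mouse at 3.5 dpi (15053). The difference between committed and quiescent cells was 0.94 ± 0.21 (SD, n = 4), 0.66 ± 0.58 (n = 3) and 0.45 ± 0.28 (n = 3) on the log2 scale for 3.5, 5 and 7 dpi, and it did not differ between days beyond the spread between mice (exact permutation F test, p = 0.286, adjusted over 6 such tests 0.572). The corresponding test gave p = 0.697 against activated and p = 0.177 against fusing cells (exact permutation F tests, adjusted 0.930 and 0.531).

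Ribosomal protein genes, which encode the protein part of the translation machinery, took a larger part of the transcripts of committed myoblasts than of other cells. Their median share was 19.1%, 19.1%, 16.6% and 17.8% of UMIs at 3.5 dpi. It was 21.7%, 20.97% and 23.7% at 5 dpi, and 20.4%, 24.0% and 22.8% at 7 dpi. The other cells of the same mice had medians between 9.63% and 12.1%, below every committed value.

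With time the ribosomal share of committed myoblasts rose from 18.1% ± 1.20 (SD, n = 4) to 22.1% ± 1.41 (n = 3) and 22.4% ± 1.83 (n = 3), with no overlap between 3.5 dpi and the later mice (exact permutation F test, p = 0.0133, adjusted 0.0311). Besides each mouse at 3.5 dpi, leaving out replicate A at 5 dpi (adjusted p = 0.0619) or replicate C at 7 dpi (adjusted p = 0.0587) ended this call in the exact permutation test. The excess over the other cells of the mouse was 7.08 ± 1.13, 10.2 ± 1.58 and 12.3 ± 1.85 percentage points at 3.5, 5 and 7 dpi (exact permutation F test, p = 0.0119, adjusted 0.0867). Committed cells were not set apart from their neighbours by this share: they were lower than quiescent MuSCs in 7 of 10 mice and higher than fusing myocytes in 7 of 10 mice.

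Transcripts of transcription factors, the class that holds Myod1 and Myog, rose in share as well. Their medians were 2.99%, 3.03%, 2.96% and 2.64% of UMIs at 3.5 dpi, 3.45%, 3.44% and 3.56% at 5 dpi, and 4.57%, 3.78% and 4.02% at 7 dpi. The 3 time points did not overlap, and the exact permutation F test gave p = 0.000476 (adjusted 0.00333), the smallest value that 4, 3 and 3 mice allow. Relative to the other cells of the mouse no rise was seen, with differences of 0.0156 ± 0.254, -0.382 ± 0.384 and -0.252 ± 0.351 percentage points (exact permutation F test, adjusted p = 0.402). The transcription factor share was higher in committed myoblasts than in fusing myocytes in 9 of 10 mice and higher than in activated MuSCs in 7 of 10, and was split against quiescent MuSCs (higher in 5 of 10).

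**Figure D5:**
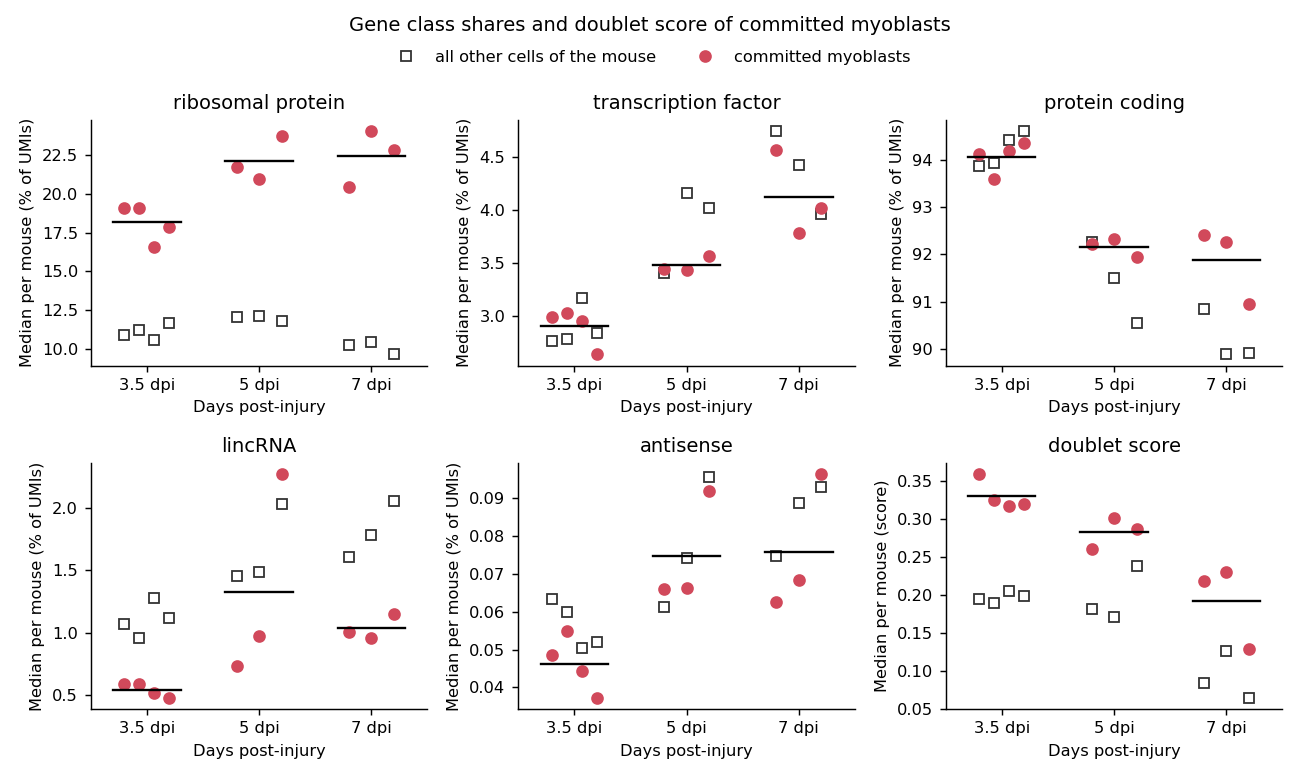
Median percent of UMIs from ribosomal protein, transcription factor, protein coding, lincRNA and antisense genes and the median doublet score, per mouse at 3.5, 5 and 7 dpi, in committed myoblasts (red, mean as a black line) and in all other cells of the same mouse (open squares). Axes do not start at 0. Ribosomal shares of committed myoblasts run from 16.6% to 24.0% and those of other cells from 9.63% to 12.1%. In the transcription factor, protein coding, lincRNA, antisense and doublet score panels both kinds of cell shift in the same direction from 3.5 to 7 dpi.

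Protein coding genes took 94.1% ± 0.332 (SD, n = 4), 92.2% ± 0.196 (n = 3) and 91.9% ± 0.803 (n = 3) of UMIs at 3.5, 5 and 7 dpi (exact permutation F test, p = 0.00429, adjusted 0.0120). The direction turned against the other cells of the mouse. Committed myoblasts were 0.143 percentage points lower than these at 3.5 dpi and 1.65 points higher at 7 dpi, which is a difference of -0.143 ± 0.269 and 1.65 ± 0.682 (exact permutation F test over the 3 time points, adjusted p = 0.0867).

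Among noncoding classes, long intergenic noncoding RNA (lincRNA) had medians of 0.483% to 0.593% of UMIs at 3.5 dpi, 0.733% to 2.27% at 5 dpi and 0.959% to 1.15% at 7 dpi. Antisense transcripts had medians of 0.0373% to 0.0550%, 0.0660% to 0.0918% and 0.0625% to 0.0963%. Both classes were lower in every mouse at 3.5 dpi than in any later mouse, a separation that 8 of the 14 measures had in 1 direction or the other. Neither class passed the test (exact permutation F tests, adjusted p = 0.139 and 0.0867). With the mean over cells in place of the median lincRNA passed (adjusted p = 0.0413), and with a stricter filter on cells antisense passed (adjusted p = 0.0343). Replicate C at 5 dpi had the highest lincRNA share, 2.27%. The lincRNA test passed without replicate A or C at 5 dpi (adjusted p = 0.0156 and 0.0206), and the antisense test passed without replicate C at 5 dpi or at 7 dpi (adjusted p = 0.025 and 0.0333, exact permutation tests). The other cells of the same mice also had lower lincRNA medians at 3.5 dpi (0.962% to 1.28%) than later (1.46% to 2.05%). As a difference from these cells, lincRNA gave adjusted p = 0.390 and antisense adjusted p = 0.480 (exact permutation F tests). Against quiescent MuSCs of the same mouse, committed myoblasts had lower lincRNA and antisense shares in 10 of 10 mice. Against activated MuSCs they were lower in 6 and 9 of 10 mice, whereas against fusing myocytes they were higher in 6 and 8 of 10.

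The remaining classes did not pass. Mitochondrial transcripts made up 9.31% ± 0.801 (SD, n = 4), 9.35% ± 0.700 (n = 3) and 9.86% ± 1.91 (n = 3) of UMIs at 3.5, 5 and 7 dpi (exact permutation F test, adjusted p = 0.863). Heat shock genes, which respond to tissue dissociation among other stresses, made up 1.44% ± 0.176, 1.12% ± 0.158 and 1.20% ± 0.193 (adjusted p = 0.187 in the same exact test). Long noncoding RNA from bidirectional promoters (bplncRNA) had medians of 0.0104% to 0.0242% (adjusted p = 0.308). Medians of snoRNA, miRNA and snRNA stayed at or below 0.00928% in every mouse, a level of few UMIs per cell, with adjusted p = 0.291, 0.291 and 0.313 in the exact permutation F test.

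The doublet score, the share of simulated doublets among a cell's nearest neighbours, moved with the same days. Its median over committed myoblasts was 0.359, 0.326, 0.317 and 0.319 at 3.5 dpi, 0.261, 0.302 and 0.287 at 5 dpi, and 0.218, 0.230 and 0.129 at 7 dpi. The 3 time points did not overlap (exact permutation F test, p = 0.000476, adjusted 0.00333). The score exceeded that of the other cells of the mouse by 0.133 ± 0.0231 (SD, n = 4), 0.0863 ± 0.0418 (n = 3) and 0.101 ± 0.0353 (n = 3). This excess did not pass a test between days (exact permutation F test, adjusted p = 0.390). Medians of the other cells ran from 0.190 to 0.205 at 3.5 dpi, 0.171 to 0.239 at 5 dpi and 0.0645 to 0.126 at 7 dpi. Committed cells were less set apart from their neighbouring states by this score. It was higher in committed myoblasts than in quiescent MuSCs in 6 of 10 mice, by 0.0304 ± 0.0611 (SD, n = 10). Against activated MuSCs it was higher in 7 of 10 mice (0.0230 ± 0.0439), and against fusing myocytes in 5 of 10 (0.0170 ± 0.0355). The authors had removed called doublets, and the part of the score in the UMI difference was not tested.

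Each cell also had a label from 3 integration methods. The state was given to cells selected by what these methods shared, on an axis built from the Harmony embedding, so their labels are no independent check of it. Harmony labelled 177 of 185 (95.7%, interval 91.7% to 98.1%) as myoblasts/progenitors and 8 as MuSCs. BBKNN labelled 181 and Scanorama 183 as committed progenitors. All 60 cells at 3.5 dpi had these labels in all 3 methods, whereas 3 cells at 5 dpi and 2 at 7 dpi were MuSCs by Harmony. A further label was named prefilter, and which filtering step it preceded is not known here. It was myoblasts/progenitors for 155 cells and MuSCs for 27. Of these 27, 3 were at 3.5 dpi, 9 at 5 dpi, 12 at 7 dpi and 3 in uninjured muscle. The other 3 cells, all at 3.5 dpi, were labelled as type IIb myonuclei (2) and as a neutrophil (1).

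The converse did not hold, since the Harmony cluster was mostly of other states. Of its 992 cells, 177 (17.8%) were committed, 311 (31.4%) were activated, 261 (26.3%) were fusing, 59 (5.95%) were quiescent and 184 (18.5%) had no state. The committed part of the cluster was 14.1% of 426 cells at 3.5 dpi, 21.8% of 261 at 5 dpi and 20.6% of 282 at 7 dpi. Fusing cells took 43.4%, 18.0% and 9.57%, and cells with no state 3.52%, 16.9% and 40.1%. These parts are of cells pooled over mice, with no test. Replicate C alone held 89 of the 187 fusing myocytes at 3.5 dpi. In the pooled counts the mixture under the cluster label differed between time points, although the committed part was similar at 5 and 7 dpi.

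The 5 committed cells outside 3.5 to 7 dpi were unlike each other. The cells of the 2 dpi samples had 4843 and 9362 UMIs, below the median of every later mouse, ribosomal shares of 23.8% and 25.4%, mitochondrial shares of 18.0% and 7.78% and the myoblast or committed progenitor label in all 3 methods. The 3 uninjured cells were all MuSCs by Harmony. Of these, both cells of replicate A had 933 and 941 genes, ribosomal shares of 0.804% and 0.511%, lincRNA shares of 14.0% and 19.5% and doublet scores of 0.533 and 0.467, and BBKNN labelled them as type IIb myonuclei, while Scanorama gave 1 of them that label and the other a cell preparation myonucleus label. Type IIb cells of the same mouse had a median ribosomal share of 5.50% and lincRNA share of 0.0762%, so the 2 committed cells were unlike that label in these values. They were not compared with the MuSCs or the cell preparation myonuclei of that mouse. The uninjured cell of replicate C had 6160 UMIs, 1683 genes, a ribosomal share of 33.8% and a lincRNA share of 1.59%. BBKNN labelled it as a MuSC and Scanorama as a committed progenitor. Without replicate A, the contrasts of 3.5, 5 and 7 dpi with uninjured muscle passed (limma adjusted p = 0.000576, 0.000911 and 0.00115).

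The committed share was also set against the number of cells and the depth of a library. Over the 17 injured mice, of which the early ones lie near 0, time point means were removed. The share then correlated with the log2 number of cells at r = -0.267 (permutation p = 0.297, adjusted over 9 relations 0.498) and rho = -0.259 (permutation p = 0.312, adjusted 0.471). For the median log2 UMIs per cell r was 0.325 (permutation p = 0.203, adjusted 0.498) and rho 0.360 (permutation p = 0.157, adjusted 0.470), and the saturation of the library gave r = 0.184 (permutation p = 0.476, adjusted 0.535) and rho 0.243 (permutation p = 0.344, adjusted 0.471). Without the 2 mice farthest from the median r was -0.160, 0.479 and 0.0282. Among the 10 mice at 3.5, 5 and 7 dpi with time point means removed, the share correlated with the median log2 UMIs per cell at r = 0.609 (permutation p = 0.0653, adjusted over 9 relations 0.498) and rho = 0.612 (permutation p = 0.0652, adjusted 0.470). Without the 2 mice farthest from the median, r was 0.430. With the log2 number of cells r was -0.391 (permutation p = 0.258, adjusted 0.498) and rho -0.248 (permutation p = 0.492, adjusted 0.554), and r was -0.583 without the 2 farthest mice. With sequencing saturation r was 0.302 (permutation p = 0.387, adjusted 0.498) and rho 0.321 (permutation p = 0.366, adjusted 0.471), and r was 0.480 without the 2 farthest. With time point means kept, r over these 10 mice was -0.369 for the number of cells, 0.186 for UMIs per cell and 0.319 for saturation. The corresponding rho was -0.382, 0.103 and 0.539, and none passed (permutation tests, adjusted p from 0.470 to 0.784). Without the 2 farthest mice r was -0.532, 0.241 and 0.728.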

How the data were processed

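The authors aligned 10x Chromium reads to mm10 with Cell Ranger 3.1.0, subtracted ambient RNA with SoupX, dropped low quality cells in Seurat and discarded doublets called by DoubletFinder. The deposited UMI totals are expected counts, not whole after SoupX and not normalized. The deposited number of reads and of barcodes per library are counts. The deposited percent values are shares of a cell's UMIs by gene class, and saturation per library. The deposited fraction values are the doublet score and the SoupX contamination. States came from bins along a PHATE axis of all myogenic cells of the study, which the authors deposited as labels.

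Cells were counted per mouse in Python 3.11.15 (numpy 2.4.6, pandas 2.3.3, scipy 1.17.1, matplotlib 3.10.9) with no further filter. Of the 185 members, 2 had fewer than 750 genes and 158 passed a stricter filter (at least 1000 genes, at least 2000 UMIs, at most 15% mitochondrial UMIs). Shares of the 25 labels were compared with limma 3.58.1 (R 4.3.3, 1 model with 21 samples) and by permuting the F statistic (100000 resamples). Medians over at least 5 committed myoblasts of a mouse were compared at 3.5, 5 and 7 dpi over all 4200 assignments of mice. Benjamini-Hochberg adjustment was used at 0.05. The report names the 4 states, the labels that the integrations gave the members and all 14 measures. Alternatives were edgeR 4.0.16 on cell numbers and those given under the dependence on processing. Each test other than the replicate block was run on simulated data first. The members and lists were chosen with earlier results of these data known.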

Additional observations from a re-analysis of the deposited data

How the results depend on the processing

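The rise of committed myoblasts at 3.5, 5 and 7 dpi over uninjured muscle kept its direction under all alternatives run. It did not pass with the untransformed share (0.377, 0.405 and 0.431 percentage points) or with the exact permutation test (adjusted p = 0.0762 for each), and passed in the other alternatives, leave-outs included (limma adjusted p up to 0.0133). Restricted to 3.5, 5 and 7 dpi, the time course no longer passed (0.0542 points). Calls of a lower share at 1 dpi and 2 dpi than in uninjured muscle appeared with a centred log ratio (-1.64 and -1.39, log2) and at 1 dpi with edgeR and TMM (log2 fold -3.42), all against cells counted at or near 0. For 2 dpi the sign turned among non-immune cells (0.00867, arcsine square root share, as below unless named) and with the Harmony label (0.000772).

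For 5 dpi against 3.5 dpi the sign turned with a centred log ratio (-0.31, log2), among non-immune cells (-0.0285), with the Harmony label (-0.0192) and with edgeR and TMM (log2 fold -0.41). For 7 dpi against 3.5 dpi these were -0.33, -0.0517, -0.00425 and -0.30, and for 7 dpi against 5 dpi -0.0124 with the centred log ratio and -0.0232 among non-immune cells. Of these, 7 dpi against 3.5 dpi among non-immune cells passed the threshold (adjusted p = 0.0494). Leaving out single samples gave ranges of -0.00644 to 0.00346 for 2 dpi against uninjured, -0.0054 to 0.00916 for 5 dpi against 3.5 dpi, -0.00484 to 0.0115 for 7 dpi against 3.5 dpi and -0.00717 to 0.00947 for 7 dpi against 5 dpi.

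Of the 14 per-cell measures, 2 passed with at least 10 cells per mouse, 0 as a difference from the other cells of the mouse and 2 to 8 when a sample was left out. With the mean over cells 6 passed, with genes (adjusted p = 0.0541) and ribosomal share (0.08) lost and lincRNA (0.0413) and miRNA (0.025) gained, and with the stricter filter 7 passed, with antisense (0.0343) gained (exact permutation tests). For 7 dpi minus 3.5 dpi the sign turned for the mitochondrial (-0.94) and snRNA (-0.000876) percent with at least 10 cells. As a difference from other cells it turned for mitochondrial (-1.75), transcription factor (-0.268), lincRNA (-0.213), bplncRNA (-9.31e-08) and protein coding (1.796) percent. Without single samples the mitochondrial difference ran from -0.549 to 1.11 and the snRNA difference from -0.000841 to 0.0038. With the share of state-labelled cells as the outcome, the correlations over the 17 injured mice with time point means removed were 0.0682 for the number of cells and -0.209 for saturation, against -0.267 and 0.184 for the share of all cells, and none passed. The cause of these changes was not tested.

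With the replicate letter as a block (replicate block), the differences from uninjured muscle at 3.5, 5 and 7 dpi were 0.0514, 0.0531 and 0.0549 (limma adjusted p = 0.0032, 0.00494 and 0.00503), and no call on the committed share of all cells or on a balance of states changed. The non-immune share was not fitted with the block, and the block result for the fusing share of all cells is not given here. Of the per-cell measures 0 passed in the replicate block, where 216 assignments allow no p below 0.0278 before adjustment and 3 measures had an unadjusted p under 0.05. Deviations of same-lettered samples correlated with a median of -0.00724, and 4 of 21 samples were closest to their own letter, so the letters were not used as pairs. By the study's methods several time points were collected on the same days, and the part of the day was not tested. With 6 to 30 committed cells per mouse at 3.5, 5 and 7 dpi, and 0 to 2 before, cell number limits every share and median.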
